A study of Mus musculus with 96 samples.

Results

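The kidney response to sleep deprivation was followed in 24 of the 96 RNA sequencing libraries of the series, 12 from sleep-deprived mice (SD) and 12 from undisturbed control mice (CON). The members were chosen by the tissue and condition named in the sample titles. All libraries came from male wild-type C57BL/6 mice of 6 to 8 weeks, which carried no engineered allele and received no drug. SD mice spent 10 h of the resting phase awake in a slowly turning drum where they could eat and drink, while CON mice were left alone, and kidneys were taken afterwards at CT4, CT8, CT12, CT16, CT20 or CT24, where CT is circadian time in hours. The study's results state that samples were collected in constant darkness, while its methods for sleep deprivation describe housing in a light and dark cycle. How CT relates to the hours since deprivation ended is not stated, so time of day and time of recovery cannot be told apart. Each condition and time had 2 libraries of total RNA that kept the strand of the transcript. Loss of sleep and the forced walking in the drum cannot be told apart in this design, and the study's methods call the 2 libraries of a time biological repeats without saying whether each is 1 animal, so the p-values measure the spread between these libraries. Condition or time differed between a sample's title and its other labels in 20 of 24 kidney samples, where the titles were followed.

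Among the lower genes were many of antigen presentation and of the interferon response. MHC class II molecules sit on dendritic cells, macrophages and B cells and show them fragments of proteins taken up from outside, while MHC class I molecules sit on nearly every cell and show fragments of its own proteins after cutting by the proteasome and transport by the TAP pump. Interferon-gamma, a cytokine made by T and NK cells, switches on both systems together with the immunity-related GTPases and the guanylate-binding proteins, which attack microbes inside cells. Type I interferons induce antiviral genes such as the Ifit, Mx and Oas families. The healthy kidney holds a network of macrophages and dendritic cells between its tubules, and the tubules themselves reabsorb what the glomerulus filters.

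Depth, the sum of gene counts in a library, lay between 32.2 M and 58.5 M counts (M, mega), so that a level of 1 CPM (count per M counts) rested on about 32.2 counts in the shallowest library. Defining genes of the kidney were present in every library, with Slc34a1 (phosphate transporter of the proximal tubule) at 4032 to 5422 CPM and Umod (uromodulin of the thick ascending limb) at 2374 to 3677 CPM. Depth, the share of ribosomal genes, the share of the 100 most abundant genes and the balance of long against short genes did not pass a test between SD and CON (4 exact permutation tests within times, two-sided, adjusted p from 0.319 to 0.345). Replicate 1 of CON at CT4, CT8, CT12 and CT24 stood apart with 2717 to 32706 CPM of Gm23935, a small RNA locus, against 106 to 2468 CPM in the other 20 libraries. Filip1l stood apart in the same 4 libraries, at 1315 to 11029 CPM against 22.2 to 260 CPM in the other 20. Zc3h7a reached 5193 CPM there against at most 636 CPM elsewhere, and Lars2 5610 CPM against at most 206 CPM, with overlap at the edge. All 4 were CON libraries, and the origin of these counts was not tested. CON CT8 replicate 2 had the highest summed level of MHC class II genes (1923 CPM), and CON CT20 replicate 1 held 91.4 CPM of albumin against at most 8.63 CPM in any SD library. Counts that lead a result are therefore also given without the first 4 of these libraries and without the last 2. Several abundant genes were nearly absent from every library: Cd68, Cfb, Isg15, Irf9 and Igkc had 0 counts in all 24, Ctss had 2, and B2m stayed at or below 1.15 CPM. Their values are not read as levels of the transcripts.

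Many more kidney genes were lower than higher in SD. Of 21528 genes tested with edgeR's quasi-likelihood test, with circadian time as an additive factor and Benjamini-Hochberg adjustment, 495 passed an adjusted p of 0.05 (2.30%). The lower genes numbered 456 (2.12% of those tested) and the higher genes 39 (0.181%). Without the 4 control libraries high in Gm23935 there were 323 lower and 16 higher genes, and without the other 2 control libraries 331 and 28. The falls were moderate, with a median log2 fold change of -0.48 over the lower genes, 217 of them past -0.5 and 40 past -1, while the median over all tested genes was 0.0085. Of the lower genes, 313 passed in each of the 24 fits that left out 1 library and 395 had a lower mean in SD at 6 of 6 times. For comparison, 935 of all tested genes (4.34%) were lower at 6 of 6 times.

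**Figure D1:**
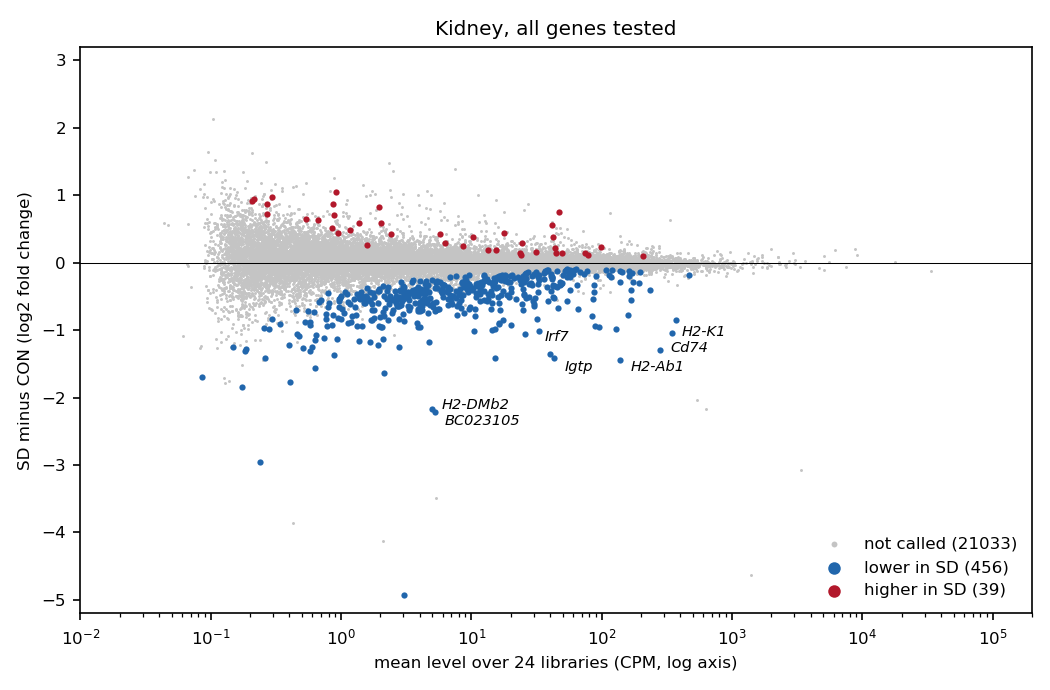
SD minus CON log2 fold change in kidney against the mean level over 24 libraries (CPM, log axis) for the 21528 genes tested; each point is a gene, 456 lower and 39 higher genes are coloured, and grey points did not pass. The blue points spread below the line from low to high levels, with H2-Ab1, Cd74 and H2-K1 as abundant examples, while the red points are few.

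Complete separation of the groups occurred in 1 direction. All 12 SD libraries lay below all 12 CON libraries for 10 genes (0.0465% of those tested), and for 0 genes did all SD libraries lie above. Among the 10 genes were H2-Eb1, H2-K1, H2-D1 and Psmb10 of antigen presentation, Oas3 and Oasl1 of the antiviral response, and Coro1a, C1qb and Mpeg1 of immune cells. Both SD libraries lay below both CON libraries at 6 of 6 times for 72 genes (0.334%), of which 38 were in an immune list, against 0 genes in the opposite direction. Over the 14 lists of immune genes, 229 genes were tested, 129 of them fell (56.3%, against 2.12% of all genes) and 0 rose, with a median log2 fold change of -0.47 over all 229. The lists were chosen with earlier results of these data known, so this share describes them and is not a test. DESeq2 called each of these 129 genes too. Of these, 119 passed without the 4 control libraries high in Gm23935, 115 without CON CT8 replicate 2 and CON CT20 replicate 1, and 111 with library sizes in place of TMM factors. In a whole organ, fewer cells of a type and less RNA per cell cannot be told apart, which holds for all groups below.

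**Figure D2:**
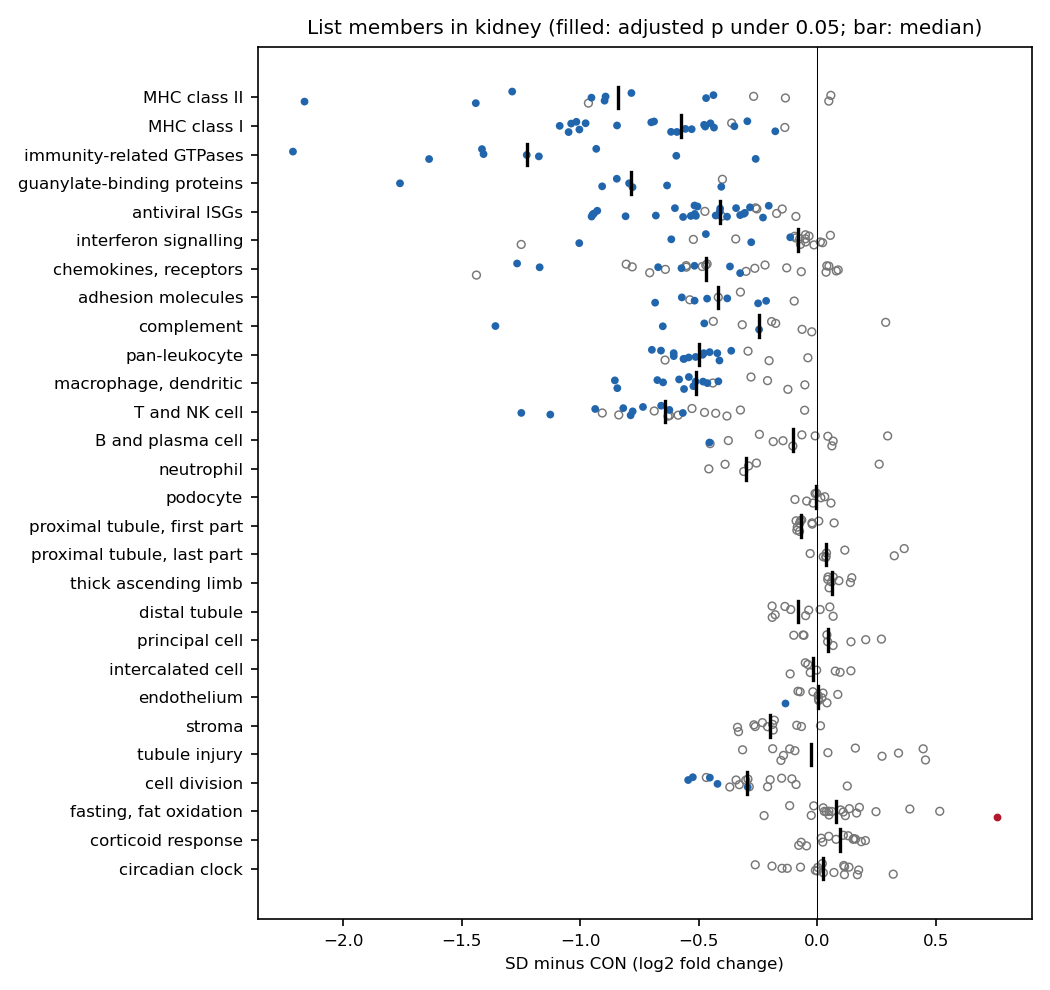
SD minus CON log2 fold change of each tested member of the main gene lists in kidney; filled points passed an adjusted p of 0.05, open points did not, and the black bar is the median of the list. Lists of antigen presentation, interferon response and leukocytes lie to the left of 0, with medians from -0.41 to -1.23 for the MHC, GTPase, antiviral, leukocyte, macrophage and T cell lists, while nephron and endothelial lists centre on 0.

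MHC class II genes, their chaperone and their master regulator fell together. Of 14 listed genes, all tested, 9 fell and 0 rose, with a median log2 fold change of -0.84. H2-Ab1, the beta chain of the I-A molecule (chr17:34257689-34269419 on GRCm38), ran from 103 to 435 CPM in CON with a median of 177 CPM, and from 49.5 to 117 CPM in SD with a median of 70.7 CPM. Its log2 fold change was -1.44 ± 0.17 (SE, n = 12 and 12, edgeR adjusted p = 4.41e-05). The groups overlapped only at the edge, and both SD libraries were below both CON libraries at 6 of 6 times. Cd74, the invariant chain that guides class II molecules through the cell, had 202 to 895 CPM in CON (median 318) and 108 to 248 CPM in SD (median 157), a change of -1.29 ± 0.17 (SE, adjusted p = 8.67e-05).

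The partner chains H2-Aa (-0.95 ± 0.14 SE) and H2-Eb1 (-0.78 ± 0.10 SE) moved the same way, H2-Eb1 with no overlap, from 73.8 to 171 CPM in CON and from 50.8 to 72.0 CPM in SD. Genes of peptide loading were lower too, with H2-DMa at -0.44, H2-DMb1 at -0.89 and H2-DMb2 at -2.16 on the log2 scale. Ciita, the transactivator that turns class II genes on, had 12.6 to 40.4 CPM in CON (median 19.9) and 7.92 to 13.96 CPM in SD (median 11.9), a change of -0.90 ± 0.13 (SE, adjusted p = 0.000284). Rfx5, Rfxank and Rfxap, the DNA-binding partners of Ciita, did not pass, with log2 changes of -0.13, 0.06 and 0.05. H2-Ob passed at an adjusted p of 0.0449 in the whole set but in 4 of 24 fits without 1 library. Summed over the list, CON libraries held 564 to 1923 CPM and SD libraries 336 to 623 CPM, and SD CT12 replicate 1 was the one SD library above the lowest CON library.

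The Y box that class II promoters share, the letters CCAAT on either strand, was looked for in RefSeq promoters on GRCm38.p6. It stood in 8 of 9 promoters of the class II list without its regulators (88.9%, 8 of 10 genes matched) and in both matched promoters of the regulators, against 36.9% of the promoters of all tested genes and 37.4% of all promoters. The letters are common and not particular to class II or to genes that fell: they stood in 37.4% of the promoters of all lower genes, in 71.4% for MHC class I and in 75% for the clock list, which had 0 calls. The next 3 stretches, written 5′ to 3′ on the strand of the gene with the box in capitals, show it before the start of the alpha chain gene and of 2 of the loading genes, H2-DMb1 and H2-DMb2, which are near copies of each other and differ in the size of their fall. A match of letters is a description and not a test of binding.
H2-Aa, chr17:34287837-34287901 (minus strand): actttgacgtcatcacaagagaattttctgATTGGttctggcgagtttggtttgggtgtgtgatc
H2-DMb1, chr17:34153100-34153164 (plus strand): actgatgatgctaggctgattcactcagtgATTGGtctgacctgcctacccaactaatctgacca
H2-DMb2, chr17:34145129-34145193 (plus strand): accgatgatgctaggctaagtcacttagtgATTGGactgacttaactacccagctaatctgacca

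MHC class I genes and the machinery that feeds them fell in 20 of 22 cases, with a median log2 fold change of -0.57. H2-K1, a classical class I heavy chain (chr17:33996017-34000347), ran from 329 to 785 CPM in CON with a median of 434 CPM, and from 142 to 316 CPM in SD with a median of 220 CPM. Its change was -1.04 ± 0.12 (SE, adjusted p = 4.03e-05). The other classical chain, H2-D1, went from 371 to 702 CPM (median 466) to 174 to 370 CPM (median 264), with -0.85 ± 0.10 (SE, adjusted p = 4.03e-05). Neither gene overlapped between the groups. The nonclassical genes H2-Q4, H2-Q6, H2-Q7, H2-T23 and H2-M3 fell by 0.45 to 0.70 on the log2 scale. Class I genes are near copies of each other, and reads that match several of them were removed before counting, so the division of the signal among them is uncertain.

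The subunits that cytokines swap into the proteasome to make the immunoproteasome fell together, Psmb8 by 0.98, Psmb9 by 1.02 and Psmb10 by 0.59 on the log2 scale. The transporter Tap1 had 19.1 to 56.9 CPM in CON (median 31.8) and 9.40 to 22.5 CPM in SD (median 17.2), a change of -1.05 ± 0.12 (SE, adjusted p = 4.41e-05). Tap2, Tapbp and Tapbpl, which complete the loading complex, fell by 0.62, 0.56 and 0.47. Erap1, which trims peptides to length, changed by -0.44 ± 0.05 (SE, adjusted p = 1.88e-05). Nlrc5, the transactivator of class I genes, fell from 10.9 to 28.1 CPM (median 17.9) to 7.28 to 13.9 CPM (median 8.84), with -1.004 ± 0.11 (SE, adjusted p = 4.03e-05). The ranges of SD and CON overlapped at their edges for Tap1, Erap1 and Nlrc5. B2m, the light chain, is among the 20 falls (-1.09) but was counted at 0.157 to 1.15 CPM. The members that did not pass were H2-T22 (-0.36) and the general chaperone Calr (-0.14).

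The immunity-related GTPases, which coat and break the vacuoles of intracellular parasites, had the lowest median of the 35 lists, -1.23 on the log2 scale. All 9 tested members fell, of 12 listed. Igtp (Irgm3, chr11:58199556-58207591) ran from 25.5 to 132 CPM in CON with a median of 58.6 CPM and from 12.5 to 31.2 CPM in SD with a median of 23.7 CPM, a change of -1.41 ± 0.16 (SE, adjusted p = 4.03e-05). Irgm1, which keeps the other members off the cell's own membranes, had 66.7 to 213 CPM in CON (median 113) and 46.9 to 73.1 CPM in SD (median 62.5), with -0.93 ± 0.10 (SE, adjusted p = 1.43e-05). Both groups touched only at their edges. The deepest fall of the family was that of BC023105, annotated as a processed pseudogene, from 2.21 to 20.9 CPM in CON (median 7.89) and from 0.346 to 2.85 CPM in SD (median 1.75), a change of -2.21 ± 0.28 (SE, adjusted p = 7.85e-05). The low SD ceiling lay inside the lower end of the CON range. Gm4841 fell by 1.64, Iigp1 by 1.42, Irgm2 by 1.23 and Tgtp2 by 1.18, the last a member of a near-identical gene pair whose partner Tgtp1 was not tested, so its value is uncertain.

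Among the guanylate-binding proteins, which join the same attack on vacuoles, 7 of 8 tested genes fell with a median of -0.79. Gbp3 had 12.8 to 33.0 CPM in CON (median 20.7) and 8.11 to 14.2 CPM in SD (median 10.8), a change of -0.91 ± 0.11 (SE, adjusted p = 6.97e-05). Gbp2b changed most, by -1.76 ± 0.28 (SE, adjusted p = 0.000553), at 0.158 to 1.12 CPM in CON and 0.0601 to 0.349 CPM in SD. Gbp11 was the member that did not pass (-0.40). As in the other families of near copies, shares between members are uncertain here.

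Promoters of the lower genes were searched for letters of known control elements, in RefSeq windows of 250 bases before to 50 bases after each gene start on GRCm38.p6. Sequences matched 341 of 454 named lower genes. The interferon-stimulated response element (ISRE) was searched as 2 copies of GAAA with any 2 bases between them, on both strands, and a match is a description of the letters. It stood in 17.2% of the 401 promoters of lower genes, in 3.11% of the 16212 promoters of all tested genes and in 3.44% of all 32851 promoters. For the higher genes it stood in 0 of 22 promoters. By list, 4 of 5 GTPase promoters, 5 of 6 guanylate-binding protein promoters and 13 of 24 promoters of antiviral genes held it. The gamma-activated site, TTCNNNGAA, stood in 12.7% of promoters of lower genes and 7.13% of those tested, and some of these letters may overlap an ISRE. The E-box of clock proteins, CACGTG, stood in 6.98% and 8.85%. The ISRE letters stood in 0 of 11 promoters of the class II list, 0 of 7 of complement, 0 of 5 of adhesion and 1 of 20 of the leukocyte list. These lists also had falls. The following 8 stretches are those of the largest falls among immune list genes with a match upstream of the start, of those whose stretches were read here. B2m stands among them by its counted change, though its counts were nearly absent and are not read as a level of the transcript. Capitals mark the ISRE letters, on either strand, and each stretch is written 5′ to 3′ on the strand of its gene.
Gbp2b, chr3:142594680-142594749 (plus strand): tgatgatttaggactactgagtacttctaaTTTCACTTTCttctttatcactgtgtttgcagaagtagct
Igtp, chr11:58199492-58199555 (plus strand): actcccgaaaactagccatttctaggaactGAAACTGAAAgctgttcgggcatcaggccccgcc
Irgm2, chr11:58214883-58214952 (plus strand): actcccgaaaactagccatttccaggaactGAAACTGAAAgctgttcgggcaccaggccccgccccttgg
Tgtp2, chr11:49064243-49064312 (minus strand): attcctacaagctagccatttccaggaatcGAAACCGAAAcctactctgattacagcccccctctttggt
Cxcl10, chr5:92349063-92349132 (minus strand): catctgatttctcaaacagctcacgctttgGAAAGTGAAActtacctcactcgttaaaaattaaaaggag
Gzma, chr13:113101039-113101108 (minus strand): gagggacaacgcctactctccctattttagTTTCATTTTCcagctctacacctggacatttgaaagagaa
B2m, chr2:122147518-122147587 (plus strand): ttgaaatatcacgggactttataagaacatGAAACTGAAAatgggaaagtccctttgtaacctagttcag
Oas3, chr5:120777695-120777764 (minus strand): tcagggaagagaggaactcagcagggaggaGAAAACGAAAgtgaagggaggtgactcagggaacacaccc

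Antiviral interferon-stimulated genes fell in most cases. Of 31 tested genes 24 fell and 0 rose, with a median log2 fold change of -0.41. Oasl1, which holds back the translation of Irf7, ran from 3.79 to 8.14 CPM in CON (median 4.83) and from 1.72 to 3.51 CPM in SD (median 2.81), a change of -0.95 ± 0.09 (SE, adjusted p = 1.17e-05). Oas3, which senses double-stranded RNA, had 1.9998 to 3.35 CPM in CON (median 2.58) and 0.661 to 1.97 CPM in SD (median 1.15), with -0.94 ± 0.13 (SE, adjusted p = 0.000141). No SD library of either gene reached a CON library. Bst2 (tetherin, which ties budding virus to the cell) fell by 0.93, Zbp1 (a sensor of Z-form nucleic acid) by 0.95 and Mx1 by 0.81. The RNA sensors Ifih1 (-0.41) and Ddx58 (-0.28) and the pair Parp9 and Dtx3l (-0.52 and -0.51), which act together on histones at interferon genes, changed less. Rsad2 (viperin) did not pass, at -0.15, nor did Ifit2, Ifit3b, Mx2, Oas1a, Oas1b and Ifi44.

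Of the genes that carry the interferon signal, those called were transcription factors. Among 20 tested ligands, receptors and signal carriers 5 fell, with a median of -0.08. Irf7, the amplifier of type I interferon, went from 23.7 to 79.7 CPM in CON (median 43.6) to 15.3 to 27.1 CPM in SD (median 21.2), a change of -1.005 ± 0.13 (SE, adjusted p = 9.37e-05). Irf1, an early target of interferon-gamma, fell by 0.62 ± 0.10 (SE, adjusted p = 0.000445), and Stat2 fell by 0.47, Irf8 by 0.28 and Stat3 by 0.11. The receptor genes Ifngr1 (-0.05), Ifngr2 (-0.07), Ifnar1 (-0.04) and Ifnar2 (-0.07) and the kinases Jak1 (-0.09) and Jak2 (0.02) did not pass. Ifng itself was near the floor of detection, with means of 0.201 CPM in CON and 0.0835 CPM in SD (-1.25 ± 0.40 SE, adjusted p = 0.129).

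Chemokines that draw T cells and monocytes were lower in part. Cxcl10, a chemokine induced by interferon-gamma (chr5:92346638-92348889), ran from 3.76 to 10.7 CPM in CON with a median of 6.47 CPM and from 1.68 to 4.27 CPM in SD with a median of 2.87 CPM, a change of -1.17 ± 0.15 (SE, adjusted p = 7.85e-05). The groups overlapped at the edge, and at 6 of 6 times both SD libraries were below both CON libraries. In all, 7 of 27 chemokine and receptor genes fell, among them Ccl12 (-1.27), Cxcl16 (-0.33) and Ccr2 (-0.57), while Cxcl9 (-0.81, adjusted p = 0.0534) and Ccl7 (-1.44, adjusted p = 0.052) lay just outside the threshold. DESeq2 called 12 of the 27. Cxcl12 of stromal cells (0.08), Cx3cl1 (-0.07) and Cxcl14 (0.09) did not pass. Of the adhesion molecules that leukocytes use to leave the blood, 7 of 11 fell, including Vcam1 (-0.38) and Icam1 (-0.25) of the vessel wall and the integrin chains Itgal (-0.68), Itgb2 (-0.47) and Itgb7 (-0.57) of the leukocyte.

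Complement genes fell in 4 of 11 cases. C4b, the component that follows C1 in the classical pathway (chr17:34728380-34743882), ran from 32.0 to 85.9 CPM in CON with a median of 57.1 CPM and from 9.83 to 49.7 CPM in SD with a median of 19.5 CPM. Its change of -1.36 ± 0.21 (SE, adjusted p = 0.000363) was the deepest of the list, and reads shared with its near copy C4a make the value uncertain. Cfi, the protease that inactivates C3b and C4b, fell by 0.65, C1ra by 0.48 and C1s1 by 0.25. C3 varied widely, from 47.5 to 220 CPM in SD, and did not pass (-0.44 ± 0.20 SE, adjusted p = 0.358).

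Markers of leukocytes as a class were lower, which stands beside every immune group above. Of 18 genes found in leukocytes of all kinds 14 fell, with a median of -0.50, and the summed level was 199 to 321 CPM in CON and 153 to 199 CPM in SD. Ptprc (CD45, the common leukocyte antigen) had 27.3 to 47.8 CPM in CON with a median of 34.4 CPM and 19.7 to 31.0 CPM in SD with a median of 23.8 CPM, a change of -0.56 ± 0.07 (SE, adjusted p = 7.85e-05). Coro1a, an actin regulator of leukocytes, went from 17.4 to 29.9 CPM (median 19.6) to 9.33 to 17.0 CPM (median 12.8), with -0.70 ± 0.08 (SE, adjusted p = 4.60e-05), and its groups did not overlap. The count of 14 was also reached without either set of doubted control libraries. The part of leukocyte number in the falls of the immune lists was not tested.

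By cell type, 12 of 17 macrophage and dendritic cell markers fell (median -0.51). Mpeg1 (a pore protein of macrophages) had 39.5 to 71.0 CPM in CON and 30.7 to 37.7 CPM in SD, a change of -0.52 ± 0.08 (SE, adjusted p = 0.000246) without overlap. The C1q chains C1qa, C1qb and C1qc fell by 0.46 to 0.51, Adgre1 (an adhesion receptor of macrophages) by 0.42, and the cross-presenting dendritic cell markers Xcr1 and Clec9a by 0.84 and 0.58. Csf1r, the receptor on which macrophages depend, did not pass, at 65.9 to 87.6 CPM in CON and 62.3 to 91.0 CPM in SD (-0.05 ± 0.05 SE, adjusted p = 0.701), nor did Mrc1 (-0.28).

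T and NK cell markers fell in 10 of 22 cases with a median of -0.64, at low levels that summed to 28.9 to 68.1 CPM in CON and 21.3 to 42.5 CPM in SD. Prf1 (perforin, -0.94), Gzma (-1.13), Gzmb (-1.25) and Nkg7 (-0.79) of cytotoxic granules passed, as did Cd8a (-0.62) and Lck (-0.66), while Cd3e (-0.38) and Cd4 (-0.43) did not. The call of 10 dropped to 5 without either set of doubted control libraries, and Gzmb lost its call without CT4 or CT16. B and plasma cell genes gave 1 fall in 13, Ighm (-0.46 ± 0.09 SE, adjusted p = 0.00664), with a list median of -0.10. Neutrophil genes gave 0 calls in 6 with edgeR, 1 at an unadjusted p of 0.05 and 0 with DESeq2.

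**Figure D3:**
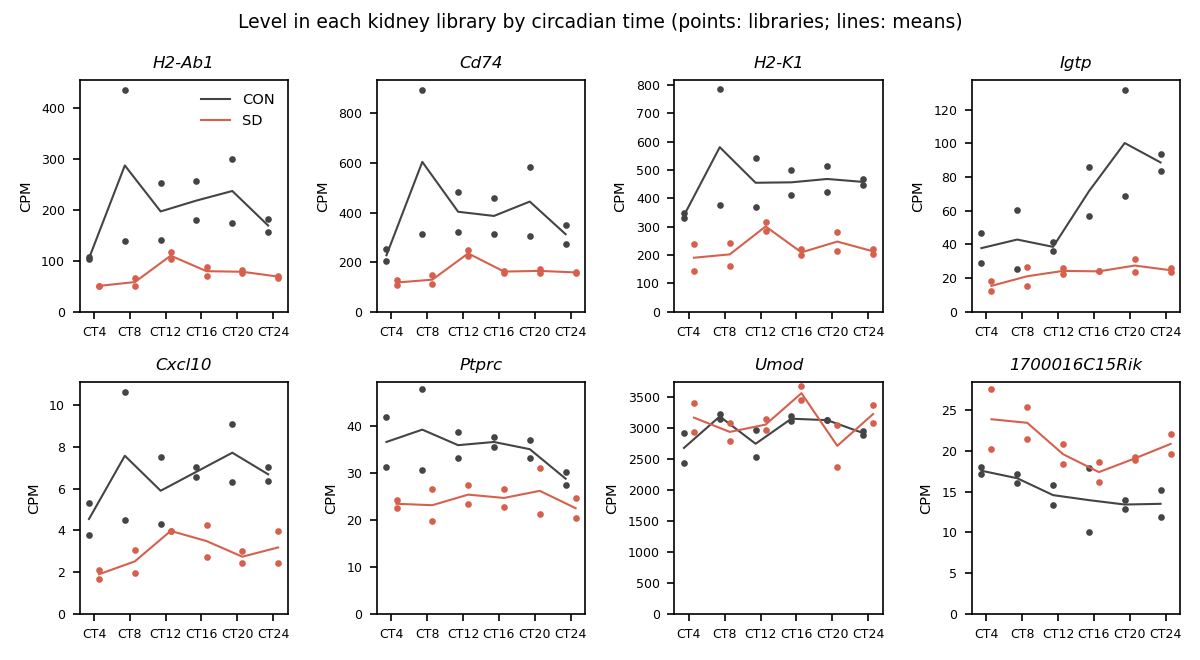
Level (CPM) of 8 genes in each kidney library by circadian time; points are libraries, 2 per condition and time, and lines are the means of SD and CON. H2-Ab1, Cd74, H2-K1, Igtp, Cxcl10 and Ptprc are lower in SD at all 6 times, the ranges of Umod overlap, and 1700016C15Rik is higher by mean at all 6 times.

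No gene of the nephron lists passed the test, though a tubule gene outside them, Dpep1, fell. In the 7 lists for podocytes, both parts of the proximal tubule, thick limb, distal tubule, principal cells and intercalated cells, 0 of 62 tested genes passed with edgeR, 6 had an unadjusted p under 0.05 and 0 passed with DESeq2. Their log2 changes ran from -0.19 to 0.37 around a median of 0.0087. Umod had 2446 to 3236 CPM in CON and 2374 to 3677 CPM in SD (0.05 ± 0.06 SE, adjusted p = 0.811). Of the endothelial genes 1 of 11 fell, Kdr, a receptor for vascular growth factor, by 0.13 ± 0.03 (SE, adjusted p = 0.0178), and the median was 0.0047. Stromal and matrix genes gave 0 calls in 12 with edgeR (8 at an unadjusted p under 0.05, 3 with DESeq2), with a median of -0.20 and Col1a1 at -0.27 ± 0.08 (SE, adjusted p = 0.0832). Tubule injury genes gave 0 calls in 12 (4 unadjusted, 1 with DESeq2), with Havcr1 at 0.34 and Lcn2 (lipocalin) at 0.46.

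Genes of cell division fell in 5 of 18 cases with a median of -0.30. Top2a, which untangles DNA, had 24.4 to 37.2 CPM in CON (median 29.8) and 12.2 to 34.6 CPM in SD (median 20.2), a change of -0.53 ± 0.11 (SE, adjusted p = 0.00998), and the groups overlapped, with the SD median below the lowest CON library. Bub1 (-0.55), Cdk1 (-0.45), Plk1 (-0.42) and Mcm5 (-0.29) also passed and Mki67 (-0.33) did not. Of 50 histone genes of DNA replication 9 fell and 0 rose (median -0.24), with Hist1h1b at -0.74 ± 0.10 (SE, adjusted p = 0.000135), in a family of near copies whose shares are uncertain. The cell division call of 5 dropped to 1 without the 4 control libraries high in Gm23935.

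Outside every list stood 321 of the 456 lower genes. Among those with the smallest p were Rnf213, an interferon-inducible ubiquitin ligase, from a mean of 264 CPM in CON to 201 CPM in SD (-0.41 ± 0.05 SE, adjusted p = 4.41e-05), and Zc3hav1 (ZAP, which binds viral RNA; -0.32 ± 0.04 SE, adjusted p = 7.40e-05). Lgals3bp, a secreted scavenger protein, went from 200.02 to 118.6 CPM (-0.77 ± 0.10 SE, adjusted p = 0.000129). Unc93b1, which carries Toll-like receptors to endosomes, fell by 0.39, and Plac8, Ly86 and Fcgr4 of myeloid cells fell by 0.55, 0.65 and 0.86. Also lower there were Gm1966 (-0.69), Rcn1, a calcium-binding protein (-0.28), Tgfbi, a matrix protein (-0.32), and Tubb5, a tubulin (-0.21). Dpep1, a dipeptidase of the proximal tubule brush border, was in no nephron list and fell from a mean of 210 CPM in CON to 173 CPM in SD (-0.30 ± 0.05 SE, adjusted p = 0.000623), and Fam151a fell by 0.28. Tnfaip8l3, a carrier of lipid second messengers, was the one among the 14 largest falls that no list held, at -1.15 ± 0.15 (SE, adjusted p = 7.85e-05). Pigr, which moves antibodies across epithelium, went from 172 to 86.0 CPM (-0.99 ± 0.17 SE, adjusted p = 0.00146). The large fall in the small RNA locus Gm24187 (-4.93, adjusted p = 0.0336) rested on the 4 control libraries that were high in Gm23935, at 2.95 to 34.0 CPM against at most 0.626 CPM in the other 20. The spread between libraries, as the SD of log2 CPM values, was smaller in the sleep-deprived group for 58.8% of the lower genes and for 46.1% of all tested genes.

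Rises were few and small. Of the 39 higher genes 26 were protein coding and 6 were numbered loci of unstated origin, the median was 0.43, and 8 passed in every fit without 1 library. 1700016C15Rik, a gene known by its clone name, ran from 9.99 to 18.02 CPM in CON with a median of 15.5 CPM and from 16.2 to 27.5 CPM in SD with a median of 19.9 CPM, a change of 0.45 ± 0.08 (SE, adjusted p = 0.00209). The ranges overlapped at the edge, and the means were higher in SD at 6 of 6 times. Over 20 genes of fasting and fatty acid oxidation the median was 0.08, and Pdk4 (0.52), Cyp4a14 (0.39) and Cpt1a (0.04) did not pass. Taf1d rose by 0.15 ± 0.03 (SE, adjusted p = 0.00475), and it and 1700016C15Rik were called in all 24 fits without 1 library, as were Tom1 (0.16), an adaptor of endosomal sorting, and the pseudogene Gm43158 (0.56). Igf2bp1 (0.42), an RNA-binding protein, and Lrrc8e (0.59), a subunit of volume-regulated anion channels, passed with adjusted p of 0.0355 and 0.0481, in 9 and 7 of these 24 fits.

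Hormone and clock genes did not pass the test averaged over the day. Among 14 genes of the corticoid response 0 passed with edgeR, 2 had an unadjusted p under 0.05 and 0 passed with DESeq2, with Tsc22d3 (GILZ) at 0.08, Fkbp5 at 0.15 and Sgk1 at 0.19. Among 18 clock genes the same counts were 0, 2 and 0, and Arntl (Bmal1) kept its daily course, with 42.4 to 49.2 CPM in CON and 32.8 to 47.8 CPM in SD at CT4 and CT8 and 3.32 to 5.64 CPM in both groups at CT16. At CT16 Ciart, a repressor within the clock, had 9.57 and 10.4 CPM in CON against 5.42 and 5.13 CPM in SD. Per2 had 83.2 and 89.4 CPM in CON against 121 and 123 CPM in SD at CT24. At CT16 Per2 was not higher in SD, with 74.8 and 89.3 CPM in CON against 69.8 and 58.8 CPM in SD. With 2 libraries per group these values are descriptions, and no gene was tested at a single time. Nr1d1 ran opposite to Arntl, from 10.2 CPM at its lowest in CON to 101 CPM at CT16. Immediate early genes (0 of 13, 3 unadjusted, 0 with DESeq2) and chaperones (0 of 16, 1 unadjusted, 0 with DESeq2) did not pass either. Markers of tissue next to the kidney varied between libraries without a call: summed genes of fat cells spanned 29.6 to 930 CPM (0 of 7, 0 unadjusted, 0 with DESeq2), urothelium 5.55 to 113 CPM (0 of 6, 1 unadjusted), hepatocytes 76.8 to 217 CPM (0 of 8, 1 unadjusted), red blood cells 110 to 546 CPM (0 of 3, 0 unadjusted) and adrenal gland 0.435 to 21.5 CPM (0 of 2, 1 unadjusted), with 0 calls by DESeq2 in each.

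Medians of most immune lists were below 0 at each time, in different depth. The exceptions were the B and plasma cell list (0.24 at CT8 and 0.04 at CT12) and the neutrophil list (0.33 at CT16 and 0.35 at CT20). At CT4, CT8, CT12, CT16, CT20 and CT24 the median log2 change of the GTPases was -1.13, -1.02, -0.59, -1.37, -1.46 and -1.87, and that of MHC class I was -0.46, -0.67, -0.25, -0.66, -0.63 and -0.79. Medians of the T and NK cell list were -1.02, -0.95, -0.42, -1.23, -0.24 and -0.07, so this list was nearest to 0 at CT24, where the GTPases were farthest from it. The shallowest fall of both GTPases and class I was at CT12. With 2 libraries per group at a time these medians are descriptions, and medians over all genes lay between -0.01 and 0.02. No gene passed the test of condition by time (0 of 21528, 0%, 1576 at an unadjusted p under 0.05), whereas DESeq2 called 129. In simulated data with a change at CT24 alone, the edgeR test recovered 48% of 100 genes changed by 1 on the log2 scale. It recovered 78% of 100 genes changed by 2, with 10 false calls, so a change at a single time can be missed. The smallest adjusted p of the edgeR test in the kidney libraries was 0.294, for Atp5j2, a subunit of ATP synthase. Atp5j2 had 102 and 117 CPM in SD at CT12 against 46.7 to 63.7 CPM in every other library. Both SD libraries at CT12 also stood above all others for mt-Nd5, a mitochondrial gene (3739 and 3927 CPM against at most 2191 CPM), Edf1, Rps29, Myl6 and Arl3, and SD CT12 replicate 2 had the lowest balance of long against short genes (2.21 on the log2 scale). CT12 was the time of the shallowest GTPase and class I falls, and the part of these 2 libraries in that was not tested. Without CT12, 117 of the 129 immune list falls were called, among 367 lower and 26 higher genes.

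**Figure D4:**
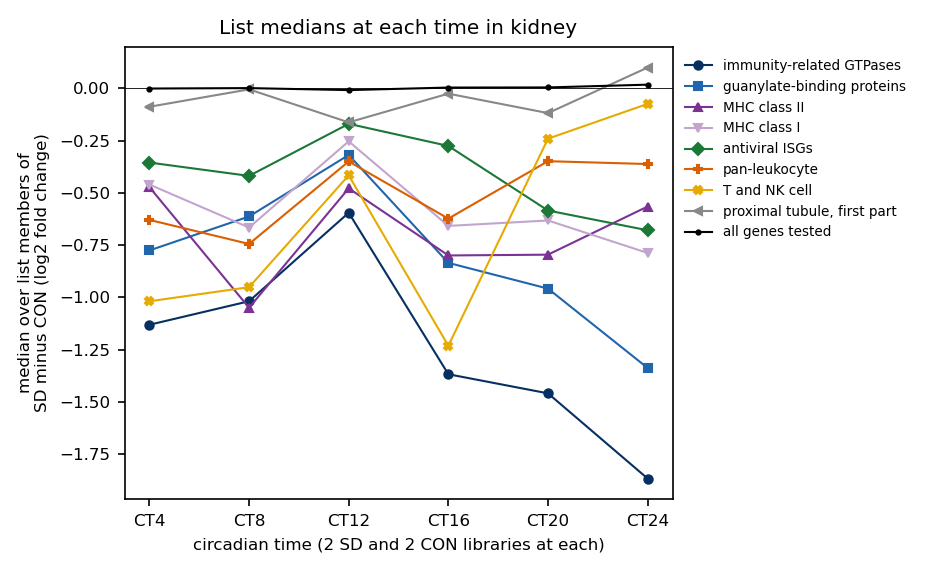
Median log2 fold change (SD minus CON) over the members of each list at each of 6 circadian times in kidney, with 2 SD and 2 CON libraries per time; each line is a list. The immune lists stay below 0 at all 6 times for MHC class I, MHC class II, the GTPases and the guanylate-binding proteins, with the GTPases lowest at CT24 (-1.87).

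The response was set against those of liver and forebrain, where libraries of the same design were fitted separately and then jointly. In the liver, 333 of 448 tested kidney-lower genes were also lower and called, with a median of -0.53, where 1735 of 19708 liver genes (8.80%) were called lower. In the forebrain 7 of 395 were lower and called, with a median of -0.09, and these 7 were the forebrain's full count of lower calls among 23078 genes (0.0303%). The tests of the difference itself, kidney minus liver, called 1484 of 22870 genes (6.49%), 861 of them with the kidney lower (3.76%). Of the 456 kidney-lower genes 61 had a lower and 15 a higher kidney effect than in liver. Against forebrain 11 had a lower kidney effect, where 12 of 25440 genes differed (0.0472%), 11 of these with the kidney lower (0.0432%). The 456 genes were chosen by their fall in the same kidney libraries, which by itself favours a lower kidney effect. Counts among them are therefore descriptions. Whether kidney and liver libraries came from the same mice is not stated in the sources used here. The joint fit treated them as independent. If mice were shared, its p-values would not hold exactly, and the falls seen also in liver would not be an independent repeat.

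**Figure D5:**
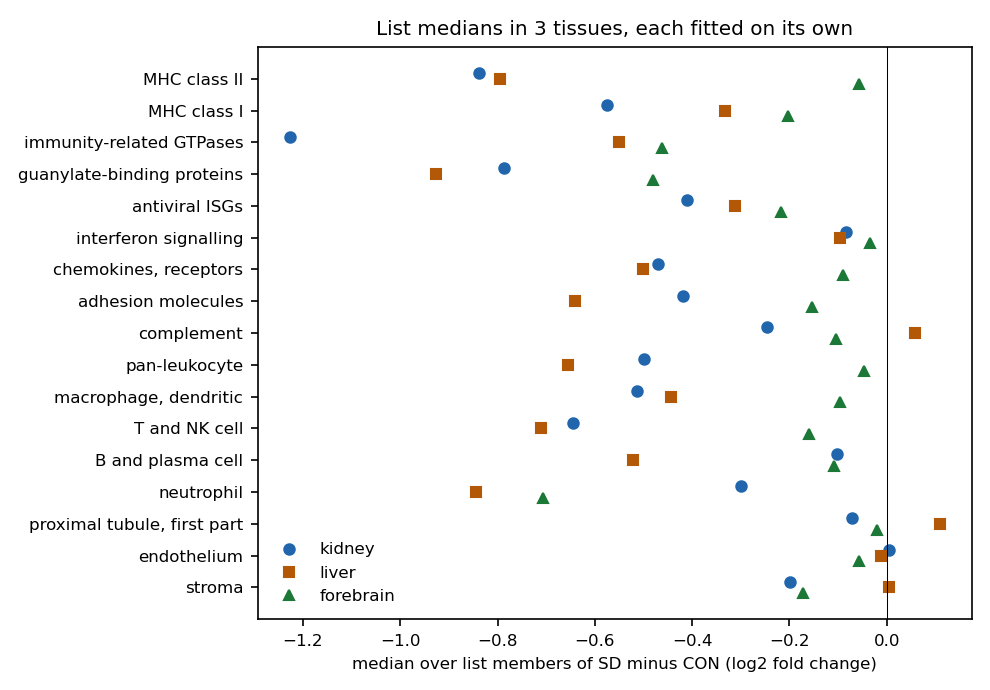
Median over list members of the SD minus CON log2 fold change in kidney, liver and forebrain, each fitted on its own; 1 point per list and tissue. Kidney and liver lie close for MHC class II (-0.84 and -0.80) and apart for the GTPases (-1.23 and -0.55) and complement (-0.25 and 0.06), while forebrain lies nearer to 0 for most lists.

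In complement 4 genes had a lower effect in kidney than in liver. C4b changed by -1.36 in kidney and 0.14 in liver, a difference of -1.49 (adjusted p = 9.30e-05), and Cfi (-0.85), C1ra (-0.53) and C1s1 (-0.41) differed in the same direction. In class I, 8 of 22 genes had a lower kidney effect, led by H2-K1 (-0.85 ± 0.14 SE, adjusted p = 0.000274, liver change -0.18) and Erap1 (-0.42). The antiviral gene Oasl1 differed by -0.70, as 1 of 7 antiviral genes with a lower kidney effect. In MHC class II the values lay close for H2-Ab1 (-1.44 in kidney, -1.39 in liver) and Cd74 (-1.29 and -1.28), whereas H2-Eb1 fell further in liver (difference 0.66, adjusted p = 0.0264), as did the macrophage gene Csf1r (difference 0.39, adjusted p = 0.0159), whose liver change was -0.44.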

How the data were processed

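Counts per gene were deposited by the authors, who trimmed paired-end reads with Trim Galore 0.6.4, aligned them to GRCm38 with HISAT2 2.1.0, filtered them with Samtools 1.9 for a mapping quality of 60, then counted reverse-stranded pairs with featureCounts 1.6.4 (versions per the labels). That filter removes reads with several equal matches, so near-identical genes are undercounted. No other normalization had been applied to the counts. Symbols and positions came from GENCODE M21 on GRCm38, and promoters from RefSeq GRCm38.p6.

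The 12 SD and 12 CON kidney libraries were fitted with edgeR 4.0.16 in R 4.3.3: filterByExpr (minimum count 10, 12 groups), TMM scaling, a quasi-likelihood test of condition with time as a term, and a threshold of 0.05 on p-values adjusted after Benjamini and Hochberg across every gene tested. SE was taken as the absolute log2 change divided by the root of F. CPM is a count over the library total. Alternatives were DESeq2 1.42.0, library sizes alone, no filter, group means, a covariate for gene length balance, a replicate block, and leaving out each library or time. In data simulated for this comparison over 21528 genes, 87% of 100 genes changed by 0.5 and 99% of 100 changed by 1 on the log2 scale were recovered, with 8 false calls.

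Named genes were the 14 largest falls and rises with a mean of at least 1 CPM and the same sign at 6 of 6 times, called list members, anchor genes of each list, and the 3 smallest p-values of each difference test. A few further genes (Rnf213, Zc3hav1, Lgals3bp, Unc93b1, Plac8, Ly86, Fcgr4, Pigr, Hist1h1b, Gm24187, Gm1966, Rcn1, Tgfbi, Tubb5, Dpep1, Fam151a, those named beside Atp5j2 and list members that did not pass) were chosen after their values were seen. The libraries, lists and tests were chosen with earlier results of these data known. Depth is given with the results. Some results are not reported here.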

Additional observations from a re-analysis of the deposited data

Results flagged for a closer look

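The change with sleep deprivation differed from that in another tissue for 6 kidney genes with the smallest p-values among those called in kidney. The difference itself was tested in a joint edgeR fit. Being called in the same kidney libraries favours a difference in the direction of the kidney change, so the choice of these genes was not independent of the test. Against liver, the kidney minus liver log2 difference was -1.49 for C4b, -0.85 for Cfi and -0.54 for Bmp1, a protease that matures collagen, whose own kidney change was -0.21 (adjusted p = 0.0290). C4b and Cfi are complement genes and had liver changes of 0.14 and 0.21. Against forebrain, the kidney minus forebrain difference was -1.16 for Cd74, -1.10 for Ciita and -0.66 for Coro1a, genes of antigen presentation and leukocytes, whose forebrain changes were -0.10, 0.22 and -0.02. Groups held 2 libraries at a time or 12 in all, so no check for single outlying values within groups applied.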

How the results depend on the processing

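Of 495 calls in SD against CON, 490 were also called by DESeq2, which called 700 in all (590 lower). The total was 1043 without a filter on low counts, 316 without CT24 and 319 without CT4, and the lower genes numbered 301 and 300 without these times. The 39 higher genes were 110 with DESeq2, 380 without the filter, 60 without CT20, 15 without CT24, 19 without CT4, 24 without CT8 and 16 without the 4 control libraries high in Gm23935, an alternative chosen after seeing the data, as was leaving out CON CT8 replicate 2 with CON CT20 replicate 1 (359 calls). The interaction of condition and time gave 129 calls with DESeq2 and 1748 without the filter. Kidney against liver gave 2547 with DESeq2 and 2915 with library sizes alone, and kidney against forebrain 55 and 6. The causes were not tested. Leaving out 1 library gave 358 to 534 calls, 343 to 478 lower, 13 to 56 higher and 0 to 4 interactions (4 without CON CT20 replicate 2). No result reversed. Of 151 named genes called, 100 kept their call in every alternative run.

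Replicate numbers were not taken to pair the samples: within times, deviations of same-numbered SD and CON libraries correlated by -0.052 to 0.28, over 0.1 at 3 of 6 times. With time and replicate number as a block, 434 genes passed, 393 of them shared, and 25 were higher.

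Depth limits the genes under about 1 CPM, where 32.2 counts lie behind a value in the shallowest library.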
